A study of Mus musculus with 9 samples.

Results

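The nuclear-encoded subunits of the mitochondrial respiratory chain were followed in mouse kidney cortex after cisplatin, a platinum chemotherapy drug that injures kidney tubules, with and without Yishen Jiangzhuo decoction (YSJZD), a herbal preparation. RNA was sequenced from 3 groups of 3 libraries each, all from wild-type (WT) mice on day 4. The first group received cisplatin by intraperitoneal injection and YSJZD into the stomach (cisplatin + YSJZD). The second received the same injection with pure water into the stomach (cisplatin), and the third received saline by injection and pure water (control). Both cisplatin groups therefore share the drug, and the decoction was not given without it. The sources used here give no strain, sex, age or dose. They also leave it unsaid whether the 3 samples of a group came from 3 mice, so the p-values cover only the spread among samples, which may be technical in part.

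Members were chosen by gene symbol, as the genes named Nduf followed by a, b, c, s or v and a number, the 4 Sdh genes, the Uqcr genes with Cyc1, the Cox genes numbered 4 to 8 followed by a, b or c, and the Atp5 genes. That gave 84 of the 17963 genes in the table, of which 40 belong to complex I, 4 to complex II, 9 to complex III, 14 to complex IV and 17 to complex V. Another 20 symbols that match the rule, 17 of them pseudogenes and the others Cox7b2, Cox8c and Ndufb1, were not analysed here. The spelling of the rule leaves out Cox4i1, Cox4i2 and Ndufab1, which are described separately, and the mitochondrially encoded subunits were not analysed here. Ndufa4 is counted with complex I by its name, although its protein is now placed in complex IV. Of the 84 members, 81 passed the filter on low counts, 80 of them with values above the filter's level of 0.625 CPM (counts scaled to the size of the library) in every one of the 9 libraries. The exceptions were Ndufb4b, which passed with lower values in some libraries, and Cox6a2, Cox8b and the pseudogene Ndufa11b, which were not tested and had 22, 18 and 1 counts over all 9 libraries.

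The respiratory chain sits in the inner mitochondrial membrane. Complexes I and II pass electrons from NADH and from succinate to ubiquinone, complex III passes them on to cytochrome c, and complex IV hands them to oxygen. Complexes I, III and IV pump protons, and complex V, the ATP synthase, lets them flow back and makes ATP. Most subunits are encoded in the nucleus, while complexes I, III, IV and V also hold subunits encoded in mitochondrial DNA. Proximal tubule cells of the kidney cortex are rich in mitochondria, and most of their ATP comes from this chain.

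The libraries held 15029286 to 16690482 expected counts. The value after ± behind a log2 fold change is its standard error in an edgeR quasi-likelihood fit of all 9 libraries. CPM are TMM-scaled, and p-values were adjusted by Benjamini-Hochberg over the 13954 genes tested. Rose, fell, higher and lower, said of a gene or of a count of genes, refer to an adjusted p under 0.05. The tissue was checked with marker genes of kidney cell types. All 12 proximal tubule markers were present in every library, and their summed level was 17022 to 34305 CPM in cisplatin + YSJZD kidneys, 3798 to 6364 CPM in cisplatin kidneys and 64179 to 82016 CPM in control kidneys. Much of each sum was 1 gene, Kap, with 9380 to 21527 CPM in cisplatin + YSJZD kidneys, 2041 to 5180 CPM in cisplatin kidneys and 42347 to 61121 CPM in control kidneys. The median log2 difference of the 12 markers from the control mean was -1.90 to -0.76 in cisplatin + YSJZD libraries and -3.71 to -3.08 in cisplatin libraries. The summed level of 6 macrophage markers was 74.9 to 134 CPM in cisplatin + YSJZD kidneys, 386 to 2045 CPM in cisplatin kidneys and 86.3 to 119 CPM in control kidneys. Lyz2 alone had 1164 CPM in cisplatin replicate 2, the library with the highest sum. After cisplatin 5 of these 6 markers rose, while Csf1r had 62.6, 130 and 31.1 CPM in cisplatin kidneys and 73.3, 57.1 and 73.1 CPM in control kidneys. That of 5 neutrophil markers was 3.62 to 7.53 CPM in cisplatin + YSJZD kidneys, 24.5 to 80.3 CPM in cisplatin kidneys and 1.17 to 1.38 CPM in control kidneys, with S100a9 at 0 in 1 control library and Mmp8 in 2. Other lists were read after cisplatin too. Of 7 thick ascending limb markers 6 fell (median log2 fold change -2.01), and of 5 distal convoluted tubule markers 5 fell (-2.40). Of 6 collecting duct markers 3 fell (-0.21). Among 5 podocyte markers 2 rose, among 6 endothelial markers 1 rose and 1 fell, and among 4 fibroblast markers 3 rose. Of all genes tested, 26% fell and 28.6% rose. The part of these shifts in cell markers in the results for the respiratory chain was not tested. In such bulk samples, fewer cells of a type and less RNA per cell cannot be told apart.

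After cisplatin alone, most members of all 5 complexes were lower than in control kidneys. Of the 81 tested members, 60 fell (74.1%) and 1 rose, Cox6b2. Of all 13954 genes tested, 26% fell and 28.6% rose, 54.6% in all. The median log2 fold change was -0.67 over the members and 0.04 over all genes. Of the 81 members 21 fell by at least 2-fold, and of all 13954 genes 2011 did. Complex II had the lowest median, at -1.22, with 4 of 4 genes lower. Complex III had a median of -0.74 with 8 of 9 lower, complex V one of -0.73 with 14 of 17 lower, and complex I one of -0.67 with 27 of 39 lower. Complex IV stood at -0.40, with 7 of 12 lower. Differences between complexes were not tested. Without TMM factors, 44 members fell and 2 rose, the second being Ndufa7, and the median of all genes moved to 0.27. The median of the members minus that of all genes was -0.71 with TMM factors and -0.70 without them. Among all called genes the share that rose was 52.4% with TMM factors and 66.1% without.

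**Figure D1:**
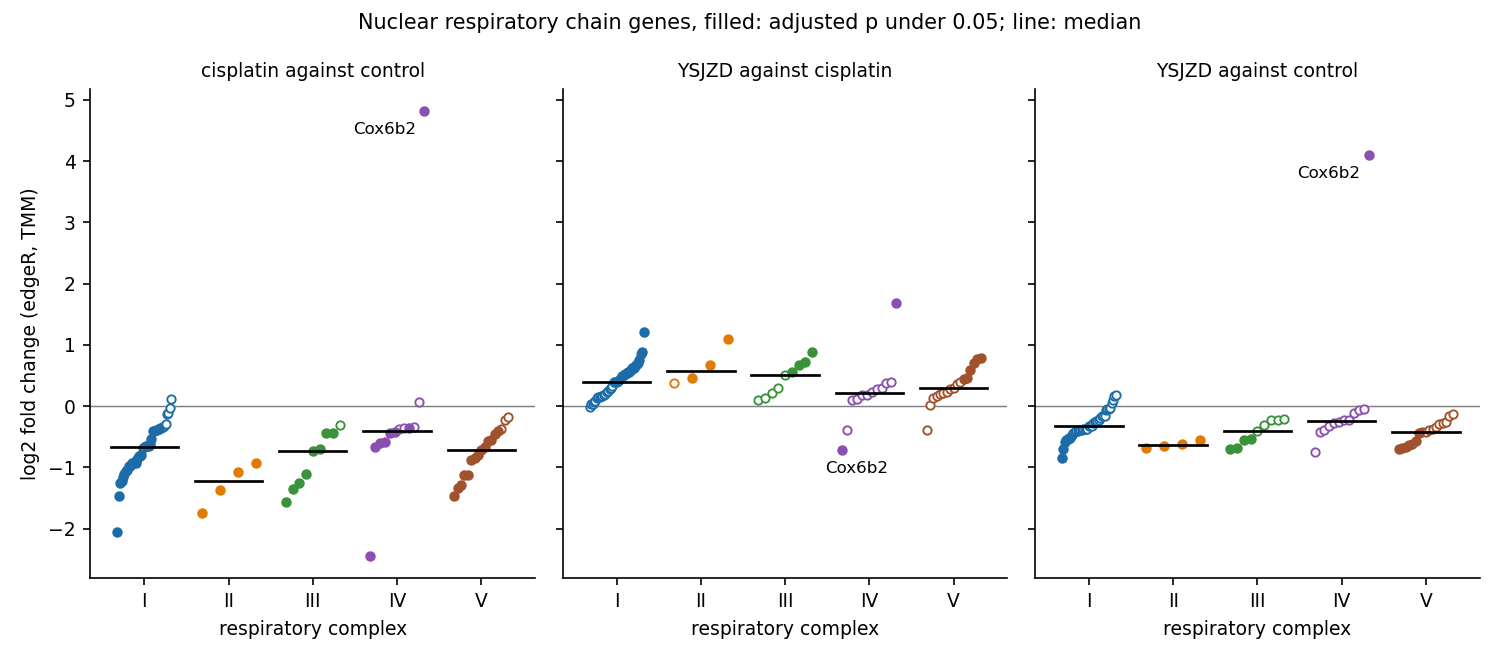
Log2 fold change (vertical axis) of each tested member in complexes I to V (horizontal axis) in the 3 comparisons. Filled points have an adjusted p under 0.05 and black lines mark medians. Points of complex II all lie below 0 in the left and right panels, and Cox6b2 of complex IV lies alone at the top of both, at 4.81 and 4.09.

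The counts that all members took together were 1.93% to 2.13% of a library in cisplatin + YSJZD kidneys, 1.38% to 1.62% in cisplatin kidneys and 2.27% to 2.66% in control kidneys. These ranges do not overlap. For complex V the mean share was 0.861% ± 0.0238 with YSJZD, 0.604% ± 0.0562 with cisplatin alone and 1.10% ± 0.0852 in control kidneys (SD, n = 3 each). Complex II took 0.122% ± 0.0123 with YSJZD, 0.0758% ± 0.00829 with cisplatin alone and 0.165% ± 0.0123 in control kidneys. Complex IV moved least, with 0.311% ± 0.0201 with YSJZD, 0.281% ± 0.0217 with cisplatin alone and 0.314% ± 0.0311 in control kidneys, and its ranges in the 3 groups overlapped. These shares are of library totals without TMM factors, and the overlap depends on that scale. With TMM factors complex IV summed to 2848 to 3132 CPM with YSJZD, 2570 to 2709 CPM with cisplatin alone and 2932 to 4007 CPM in control kidneys. There every cisplatin library lay below all others. The ratio of cisplatin to control means was 0.458 for complex II, 0.549 for complex V, 0.591 for complex III, 0.685 for complex I and 0.894 for complex IV.

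**Figure D2:**
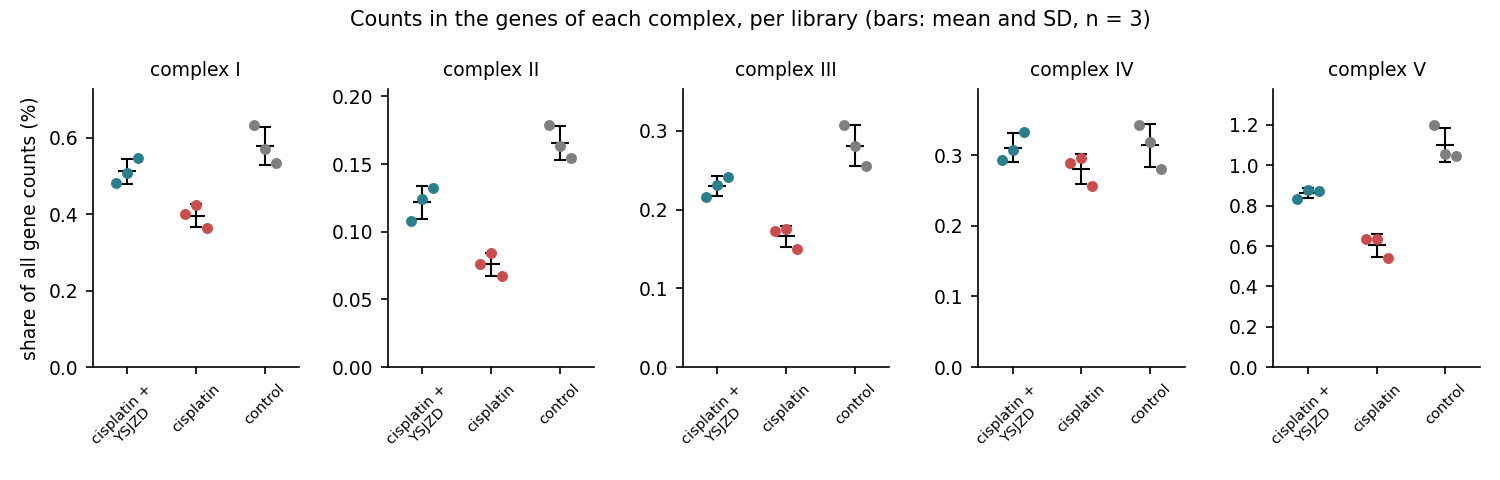
Share of all gene counts in a library (vertical axes, %, starting at 0) taken by the genes of each complex. Points are libraries, bars the mean and SD of 3. In complexes I, II, III and V the 3 cisplatin libraries lie below all others, while in complex IV the groups overlap on this scale, which has no TMM factors.

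Complex II is the succinate dehydrogenase that also serves the Krebs cycle, and none of its subunits is encoded in mitochondria. Sdha, the flavoprotein that oxidises succinate, had 389.9, 524 and 500.4 CPM in cisplatin + YSJZD kidneys, 209, 235 and 216 CPM in cisplatin kidneys and 831, 728 and 664 CPM in control kidneys. Its 3 groups do not overlap. It fell after cisplatin by a log2 fold change of -1.75 ± 0.16 (adjusted p = 1.4e-05) and was higher with YSJZD than with cisplatin alone by 1.10 ± 0.16 (adjusted p = 0.00072). Sdhb, the iron-sulfur subunit, had 243, 269 and 291 CPM in cisplatin + YSJZD kidneys, 157, 178 and 168 CPM in cisplatin kidneys and 524, 415 and 357 CPM in control kidneys. It fell by a log2 fold change of -1.37 ± 0.16 after cisplatin (adjusted p = 6.9e-05). The membrane anchors moved less. Sdhc had 266, 269 and 287 CPM in cisplatin + YSJZD kidneys, 191, 213 and 193 CPM in cisplatin kidneys and 472, 416 and 371 CPM in control kidneys, and Sdhd had 154, 165 and 168 CPM in cisplatin + YSJZD kidneys, 131, 141 and 101 CPM in cisplatin kidneys and 264, 229.6 and 220.1 CPM in control kidneys. Their log2 fold changes after cisplatin were -1.08 ± 0.13 and -0.94 ± 0.15 (adjusted p = 8.8e-05 and 0.00045). All 4 genes keep their groups apart between cisplatin and control, in a comparison where 54.6% of all genes tested were called. The share of all genes with groups apart was not counted.

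The sequence upstream of Sdhb is shown as an example of a complex II promoter with one of the motifs searched, the core site of nuclear respiratory factor 1 (NRF1), GCATGCGC. NRF1 is a transcription factor known for its sites in genes of the respiratory chain. These are the 200 bases before the transcription start in the RefSeq annotation of GRCm38.p6, with motif letters in capitals.
Sdhb (chr4:140961071-140961270, plus strand): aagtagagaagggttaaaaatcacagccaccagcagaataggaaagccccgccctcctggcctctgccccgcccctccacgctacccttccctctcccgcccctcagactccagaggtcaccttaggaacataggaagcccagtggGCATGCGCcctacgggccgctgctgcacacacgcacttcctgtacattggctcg
The capitals stand 54 to 47 bases before the start. Another motif searched, the ETS site CCGGAAG, lies 6 to 12 bases after the start, outside the bases printed. The window holds 61% G and C, and 9 CG dinucleotides.

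In complex I the subunits that carry electrons fell together. All 7 core subunits encoded in the nucleus, which hold the flavin and the iron-sulfur clusters, were lower after cisplatin, with a median log2 fold change of -0.93. Ndufs1, the large iron-sulfur subunit, fell most, with 74.3, 86.5 and 68.9 CPM in cisplatin kidneys, against 343, 324 and 291 CPM in control kidneys (log2 fold change -2.06 ± 0.21, adjusted p = 2.9e-05). No cisplatin library came near a control library. Ndufv1, which binds NADH and the flavin, had 155, 151 and 168 CPM in cisplatin kidneys, against 419.8, 368 and 349 CPM in control kidneys (-1.26 ± 0.13, adjusted p = 2.7e-05). Ndufs3, another core subunit, moved less, at -0.81 ± 0.15 (adjusted p = 0.0011). Ndufs8, which holds iron-sulfur clusters, was at -0.87.

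The accessory subunits, which surround that core, were more mixed. Of the 16 matrix-arm members tested, core included, 11 fell, with a median log2 fold change of -0.84, and of 19 membrane-arm members 14 fell, with a median of -0.65. The 16 hold the 7 core subunits, all of which fell, so -0.84 does not describe the accessory subunits alone. The accessory matrix-arm members that fell were Ndufv3, Ndufs6, Ndufa6 and Ndufa9. Ndufs4, Ndufa2, Ndufa5, Ndufa7 and Ndufa12 did not pass. Ndufa10, an accessory subunit of the membrane arm, had 131, 131 and 131 CPM in cisplatin kidneys, against 328, 299.7 and 291 CPM in control kidneys (-1.22 ± 0.11, adjusted p = 1.4e-05). Its cisplatin libraries agree within 1 CPM of each other. At the other end, Ndufs5 and Ndufb7 were the called members with the smallest falls, at -0.38 ± 0.13 and -0.39 ± 0.14. Ndufa7, a small accessory subunit, had 62.1, 65.7 and 65.4 CPM in cisplatin kidneys, against 73.2, 54.0 and 51.5 CPM in control kidneys, and the groups overlap (log2 fold change 0.11 ± 0.14, adjusted p = 0.53). Ndufa3 at -0.04, Ndufb6 at -0.11 and Ndufa2 at -0.13 did not pass the test either. Ndufa4 fell by -0.93 ± 0.15 (adjusted p = 0.00052), while its paralog Ndufa4l2, known as a gene induced by low oxygen, had 1.25, 3.65 and 1.24 CPM in cisplatin kidneys, against 2.77, 2.70 and 4.30 CPM in control kidneys (-0.67 ± 0.44, adjusted p = 0.23). Ndufb4 has the near-identical copies Ndufb4b and Ndufb4c, between which reads may be split, so that the fall of Ndufb4c, -1.47 ± 0.17, is uncertain on its own. With the 3 copies added into 1 gene, a choice made after the data were seen, 59 members fell.

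In complex III the large subunits fell furthest. Uqcrc2, one of the core proteins that face the matrix, had 197, 194 and 201 CPM in cisplatin kidneys, against 665, 598 and 494 CPM in control kidneys (-1.57 ± 0.17, adjusted p = 3.7e-05). Its cisplatin values lie within 8 CPM of each other and far below the lowest control value. Uqcrfs1, the Rieske iron-sulfur protein, fell by -1.36 ± 0.15, Uqcrc1, the other core protein, by -1.26 ± 0.13, and Cyc1, cytochrome c1, by -1.11 ± 0.14. The small subunits Uqcr10 and Uqcrh fell by -0.43 ± 0.15 and -0.43 ± 0.16, with adjusted p of 0.028 and 0.045. Uqcrq was the member that did not pass, at -0.30 ± 0.14 (adjusted p = 0.096).

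Complex V has a catalytic head, F1, and a membrane part, Fo, with a ring of c subunits that turns as protons pass. Atp5b, the catalytic beta subunit, had the highest level per length of any member in control kidneys, at 2272 ± 141 FPKM (fragments scaled to transcript length and library total; SD, n = 3), and 967 ± 82.6 FPKM in cisplatin kidneys. On the TMM scale it had 1603, 1578 and 1514 CPM in cisplatin kidneys, against 4896, 4071 and 4008 CPM in control kidneys (-1.47 ± 0.15, adjusted p = 3.0e-05). The alpha subunit gene Atp5a1 fell by -1.34 ± 0.16 and the gamma subunit gene Atp5c1, the rotating shaft, by -1.12 ± 0.15. Of the 5 head genes 4 fell, with a median of -1.12, and Atp5e, the epsilon subunit, was at -0.22 ± 0.24 (adjusted p = 0.45). Of the other 12 genes 10 fell, with a median of -0.69. Atp5pb, subunit b of the stator, fell by -1.29 ± 0.18, while Atp5j2 and Atp5md, small membrane subunits, had the smallest falls that passed, -0.41 ± 0.14 and -0.46 ± 0.15.

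The c subunit is encoded by 3 genes whose mature proteins are the same, Atp5g1, Atp5g2 and Atp5g3, and these did not move alike. Atp5g3 had 292, 278 and 260.1 CPM in cisplatin kidneys, against 707, 581 and 518 CPM in control kidneys (-1.12 ± 0.14, adjusted p = 0.00012). Atp5g1 fell by -0.88 ± 0.15 (adjusted p = 0.00066). Atp5g2 had 165, 169 and 156 CPM in cisplatin kidneys, against 218, 172 and 169 CPM in control kidneys, with overlapping groups (-0.19 ± 0.14, adjusted p = 0.28; 0.05 without TMM factors). Of the FPKM of the 3 genes together, Atp5g2 took 20.8% ± 1.24 in cisplatin + YSJZD kidneys, 28.1% ± 0.411 in cisplatin kidneys and 17.9% ± 0.547 in control kidneys (SD, n = 3 each). Atp5g3 took 49.3% ± 3.94 with YSJZD, 41.7% ± 1.57 with cisplatin alone and 50.8% ± 2.34 in control kidneys. Atp5g1 took 29.9% ± 3.31 with YSJZD, 30.1% ± 1.68 with cisplatin alone and 31.3% ± 2.53 in control kidneys. The share of Atp5g2 is thus highest in the 3 cisplatin libraries, at 27.8% to 28.6%, against 17.4% to 18.5% in control libraries.

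Because the 3 genes give the same mature protein, their promoters are shown side by side (RefSeq, GRCm38.p6, the 200 bases before the start, motif letters in capitals).
Atp5g1 (chr11:96075632-96075831, minus strand): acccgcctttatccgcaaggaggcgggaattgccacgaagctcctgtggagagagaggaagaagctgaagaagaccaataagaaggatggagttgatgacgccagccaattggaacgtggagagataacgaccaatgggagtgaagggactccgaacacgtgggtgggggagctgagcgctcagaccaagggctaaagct
Atp5g2 (chr15:102671048-102671247, minus strand): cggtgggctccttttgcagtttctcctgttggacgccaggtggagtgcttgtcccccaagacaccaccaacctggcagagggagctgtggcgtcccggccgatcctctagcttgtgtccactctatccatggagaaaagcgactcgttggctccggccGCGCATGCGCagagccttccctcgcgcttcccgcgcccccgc
Atp5g3 (chr2:73911327-73911526, minus strand): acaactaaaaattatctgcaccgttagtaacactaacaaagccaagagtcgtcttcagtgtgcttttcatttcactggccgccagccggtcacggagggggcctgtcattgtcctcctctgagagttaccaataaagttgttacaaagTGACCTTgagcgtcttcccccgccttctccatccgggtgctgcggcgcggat
The capitals in Atp5g2 are 1 palindrome, GCGCATGCGC, 42 to 33 bases before the start, which the NRF1 core GCATGCGC matches once on each strand. In Atp5g3 they mark TGACCTT, the reverse complement of AAGGTCA, a short site bound by oestrogen-related receptors (ERR), 52 to 46 bases before the start. None of the 4 motifs searched is in this window of Atp5g1.

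Complex IV differed in its pattern among members. Its subunits come in part as tissue isoforms, and the gene that rose was one of these. Cox6b2, the testis isoform of subunit 6B, had 35.7, 34.3 and 47.3 CPM in cisplatin + YSJZD kidneys, 66.1, 84.4 and 43.2 CPM in cisplatin kidneys and 2.77, 2.48 and 1.66 CPM in control kidneys. All 6 libraries with cisplatin lie more than 10 times above every control library. The log2 fold change after cisplatin was 4.81 ± 0.30 (adjusted p = 2.4e-06). Cox6b1, the isoform found in most tissues, had 321, 338 and 336 CPM in cisplatin + YSJZD kidneys, 301, 291 and 291 CPM in cisplatin kidneys and 519, 424 and 387 CPM in control kidneys, and fell after cisplatin (-0.59 ± 0.14, adjusted p = 0.0041). As a share of the FPKM of both genes, Cox6b2 made up 9.75% ± 1.52 in cisplatin + YSJZD kidneys, 16.7% ± 4.63 in cisplatin kidneys and 0.463% ± 0.0757 in control kidneys (SD, n = 3 each).

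Genes beside Cox6b2 in the RefSeq order were read for comparison, after its values were seen. Kmt5c had 785 to 866 counts in cisplatin kidneys and 733 to 791 in control kidneys. Rpl28 had 8456 to 9845 counts in cisplatin kidneys and 3813 to 4770 in control kidneys, and Tmem238 had 410 to 482 in cisplatin kidneys and 279 to 323 in control kidneys. Counts were lower for Brsk1, with 23 to 60 in cisplatin kidneys and 12 to 19 in control kidneys, and for Il11, with 4 to 22 in cisplatin kidneys and 0 or 1 in control kidneys. In each of these but Kmt5c the raw counts of all cisplatin libraries exceeded those of all control libraries. These counts were not scaled by TMM, and every cisplatin library had a larger TMM factor than any control library. Scaling would therefore lower the cisplatin values against the control values. From raw counts alone, Kmt5c cannot be read as unchanged after cisplatin, nor Tmem238 as above control. Fam71e2 had at most 1 count in any library, Tmem150b at most 4 and Tmem190 at most 11. Cox6b2 itself had 696 to 1478 counts in cisplatin kidneys and 25 to 38 in control kidneys. In cisplatin kidneys all 5 deposited Cox6b2 transcripts, and in control kidneys 2 or 3 of them, had values above 0. Transcript NM_183405.2 held 60.2% to 65.8% of the gene's FPKM in cisplatin kidneys and 68.4% to 84.4% in control kidneys, where the counts are low.

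The promoters of the 2 isoform genes are given since their transcripts went in opposite directions (same source and length).
Cox6b1 (chr7:30626115-30626314, minus strand): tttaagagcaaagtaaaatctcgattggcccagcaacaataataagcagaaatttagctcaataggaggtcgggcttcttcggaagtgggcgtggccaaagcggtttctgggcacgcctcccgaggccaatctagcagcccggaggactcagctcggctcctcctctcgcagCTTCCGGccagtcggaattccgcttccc
Cox6b2 (chr7:4753095-4753294, minus strand): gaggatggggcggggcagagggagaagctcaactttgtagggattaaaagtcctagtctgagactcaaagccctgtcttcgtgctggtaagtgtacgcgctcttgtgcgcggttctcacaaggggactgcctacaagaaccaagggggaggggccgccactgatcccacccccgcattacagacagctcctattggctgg
In Cox6b1 the capitals mark CTTCCGG, the reverse complement of the ETS site CCGGAAG, 28 to 22 bases before the start. The window of Cox6b2 holds none of the 4 motifs. G and C make up 55.5% of the bases for Cox6b1 and 57.5% for Cox6b2.

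Cox7a1, the muscle isoform of subunit 7A, fell most of all members, with 1.95, 2.00 and 1.68 CPM in cisplatin kidneys, against 12.4, 9.25 and 9.07 CPM in control kidneys (-2.44 ± 0.30, adjusted p = 8.1e-05). Cox7a2, the isoform of most tissues, fell by -0.43 ± 0.17 with an adjusted p of 0.048, and its call was lost in 11 of the 15 alternatives tried, so it is uncertain. Cox7a1 made up 9.10% ± 2.03 of the FPKM of both genes in cisplatin + YSJZD kidneys, 3.44% ± 0.245 in cisplatin kidneys and 12.9% ± 1.89 in control kidneys (SD, n = 3 each). Cox7a2l, a related protein that joins complexes III and IV, had 81.9, 116 and 75.3 CPM in cisplatin kidneys, against 95.6, 85.3 and 81.1 CPM in control kidneys, with no call (0.06 ± 0.17, adjusted p = 0.78). The general subunits lay close together. Cox5a fell by -0.67 ± 0.14 and Cox5b by -0.35 ± 0.13 (adjusted p = 0.0019 and 0.039), and the call of Cox5b was lost in 9 of the 15 alternatives, so it is uncertain. Cox6a1 and Cox8a, 2 of the most abundant members, were at -0.35 ± 0.14 and -0.37 ± 0.15 without passing (adjusted p = 0.06 and 0.058). The muscle isoforms Cox6a2 and Cox8b made up under 0.2% of the FPKM of their isoform pairs in every library.

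**Figure D3:**
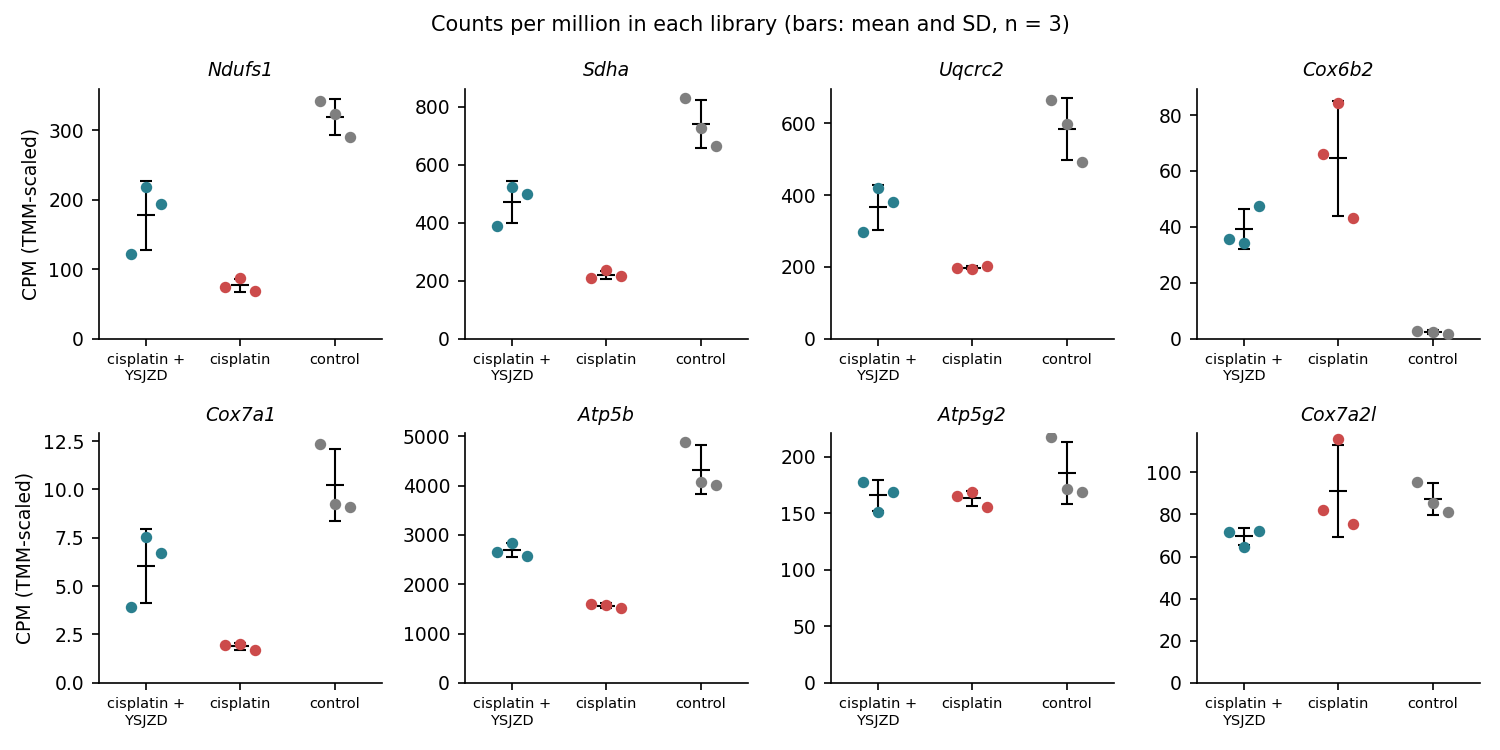
CPM after TMM scaling (vertical axes, starting at 0) of 8 members in each library. Points are libraries, bars the mean and SD of 3. Ndufs1, Sdha, Uqcrc2, Atp5b and Cox7a1 are lowest in the cisplatin libraries, Cox6b2 is near 0 in control libraries, and the groups overlap for Atp5g2 and Cox7a2l.

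Levels per length differed widely within each complex. In control kidneys the members with the highest FPKM after Atp5b were Ndufa4 at 1585 ± 157, Cox8a at 1539 ± 159.8, Cox6a1 at 1469 ± 113 and Cox6b1 at 1149.5 ± 106, and the first 3 do not differ beyond their spread. Complex II genes were lower, with Sdhb at 425 ± 58.4, Sdhc at 372 ± 23.4, Sdha at 248 ± 13.8 and Sdhd at 191 ± 7.88. Sdhb and Sdhc do not differ beyond their spread. In cisplatin kidneys Sdha had 86.6 ± 7.95 FPKM and was the lowest of the 4 (SD, n = 3 each). FPKM values were scaled to library totals and not by TMM.

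With YSJZD on top of cisplatin, part of the chain was higher than with cisplatin alone. Of the 81 tested members 31 were higher and 1, Cox6b2, was lower, with a median log2 fold change of 0.38. Among all genes 17.4% were higher and 18% lower, 35.4% in all, with a median of -0.01. The higher members were 17 of 39 in complex I, 3 of 4 in complex II, 4 of 9 in complex III, 6 of 17 in complex V and 1 of 12 in complex IV. The medians of these complexes were 0.40, 0.57, 0.50, 0.29 and 0.21. The number of higher members was 20 when cisplatin replicate 1, cisplatin replicate 3 or YSJZD replicate 3 was left out, and 38 without YSJZD replicate 1. Over all genes, calls in either direction numbered 4942 in the main fit and 4040, 4814, 3496 and 4871 without these libraries in turn.

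This comparison uses the same cisplatin libraries as the one with control kidneys. Ndufs1, the large iron-sulfur subunit, had 121, 218 and 193 CPM in cisplatin + YSJZD kidneys, against the cisplatin values above (log2 fold change 1.21 ± 0.21, adjusted p = 0.0019). Uqcrc2 had 297, 419 and 382 CPM in cisplatin + YSJZD kidneys (0.89 ± 0.16, adjusted p = 0.0028), and Atp5b 2653, 2843 and 2567 CPM in cisplatin + YSJZD kidneys (0.78 ± 0.15, adjusted p = 0.0033). In each of these 3 genes, every YSJZD library was above every cisplatin library, and YSJZD replicate 1 or 3 was the lowest of its group. All 3 are called genes, in a comparison where 35.4% of all genes tested were called. How many of all genes have these groups apart was not counted. Cox7a1 had 3.91, 7.55 and 6.70 CPM in cisplatin + YSJZD kidneys (1.68 ± 0.29, adjusted p = 0.002) and was the only complex IV gene that was higher. Of complex II, Sdhb was at 0.68 ± 0.16 and Sdhc at 0.46 ± 0.13, while Sdhd did not pass, at 0.38 ± 0.15 (adjusted p = 0.067).

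Among the other members that were higher, Ndufb4c was at 0.89 ± 0.17 with the doubt given above, and Ndufv1 at 0.75 ± 0.13. The smallest changes that passed in complex I were those of Ndufa8, an accessory subunit, at 0.40 ± 0.14 (adjusted p = 0.044), and Ndufs8, a core iron-sulfur subunit, at 0.47 ± 0.14 (adjusted p = 0.024). In complex III, Uqcrc1 was at 0.71 ± 0.13, Uqcrfs1 at 0.66 ± 0.14 and Cyc1 at 0.56 ± 0.14. In complex V, Atp5a1 was at 0.77 ± 0.16, Atp5g1 at 0.45 ± 0.15 and Atp5c1 at 0.44 ± 0.15, the last of these with an adjusted p of 0.037. Atp5g3 had 430.2, 468 and 448 CPM in cisplatin + YSJZD kidneys (0.70 ± 0.14, adjusted p = 0.0047), while Atp5g2 had 178, 151 and 169 CPM in cisplatin + YSJZD kidneys (0.02 ± 0.14, adjusted p = 0.92).

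The lower level of Cox6b2 with YSJZD was weakly supported. The groups overlap, since YSJZD replicate 3 was above cisplatin replicate 3 (log2 fold change -0.72 ± 0.24, adjusted p = 0.042). The adjusted p was 0.07 when only the 6 libraries compared were fitted, and without cisplatin replicate 2 it was 0.16. Over the libraries left out in turn it ran from 0.0075 to 0.16. Cox7a2l was at -0.39 ± 0.17 without passing (adjusted p = 0.095).

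Against control kidneys, the cisplatin + YSJZD kidneys still had lower levels of some members. Here 21 of 81 were lower and 1, Cox6b2, was higher, with a median log2 fold change of -0.37. Among all genes 9.37% were lower and 9.93% higher, 19.3% in all, with a median of 0.01. All 4 complex II genes were lower, with a median of -0.63, as were 7 of 39 in complex I, 4 of 9 in complex III and 6 of 17 in complex V. By edgeR 0 of the 12 complex IV genes were lower, and 3 with negative changes were at an unadjusted p under 0.05. DESeq2 called 3 of the 12 lower, Cox5a, Cox6b1 and Cox7a1, and limma-voom 0. Over all 13954 genes tested, 4584 were at an unadjusted p under 0.05 by edgeR, in either direction. The count of 21 changed when single libraries were left out. Leaving out control replicate 1 gave 5, control replicate 2 gave 10 and YSJZD replicate 3 gave 11, while the count was 10 without TMM factors and 35 by DESeq2. Over all genes, calls in either direction numbered 2694 in the main fit, and 1607, 1699 and 1898 without these libraries in turn. They numbered 3174 without TMM factors and 3382 by DESeq2. The 5 that passed when control replicate 1 was left out were Ndufa10, Sdhc, Uqcrfs1, Atp5b and Atp5c1. Without TMM factors the median of all genes moved to 0.20, the members stood -0.37 from it, against -0.38 with TMM factors, and 75.4% of the called genes were higher, against 51.4%.

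The lowest log2 fold changes in that comparison were those of Ndufs1, -0.85 ± 0.20 (adjusted p = 0.017), and Ndufa10, -0.70 ± 0.11 (adjusted p = 0.0023). Ndufa10 had 191, 187 and 186 CPM in cisplatin + YSJZD kidneys, which do not reach the control values above. In complex III, Uqcrfs1 was at -0.70 ± 0.14, Uqcrc2 at -0.68 ± 0.16, Uqcrc1 at -0.55 ± 0.13 and Cyc1 at -0.55 ± 0.14. The complex V genes ranged from Atp5pb at -0.70 ± 0.18 and Atp5b at -0.69 ± 0.15 to Atp5a1 at -0.57 ± 0.16 and Atp5h, subunit d of the stator, at -0.44 ± 0.13. In complex II they ranged from Sdhb at -0.69 ± 0.16 to Sdhd at -0.55 ± 0.15, with Sdha at -0.65 ± 0.15 and Sdhc at -0.62 ± 0.13. Ndufv1 at -0.51 ± 0.13 and Ndufa4 at -0.53 ± 0.15 were the complex I genes with the smallest differences that passed. Cox6b2 remained 4.09 ± 0.30 higher on the log2 scale (adjusted p = 4.1e-05). Cox7a1 was at -0.76 ± 0.27 without passing (adjusted p = 0.082).

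The size of a change went along with transcript length among the members. Length here is the effective length implied by the deposited counts and FPKM, which had a median of 504 bases over the 81 members and 2683 bases over all 13954 genes. After cisplatin the median log2 fold change was -0.43 for the 40 members under 500 bases, -0.67 for 21 from 500 to 1000 bases, -1.11 for 13 from 1000 to 1500 bases and -1.47 for 7 above 1500 bases. Over all genes in the same length classes the medians were 0.15, 0.06, 0.04 and 0.04. For YSJZD against cisplatin the member medians were 0.21, 0.39, 0.55 and 0.78, and those of all genes -0.12, -0.05, 0.02 and -0.0026.

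Spearman's rho between log2 fold change and length was -0.44 over the 81 members after cisplatin and -0.01 over all genes, as a description of the same 9 libraries. For YSJZD against cisplatin it was 0.39 over the members. The last length classes are thin. Without the 7 members above 1500 bases rho was -0.35 and 0.27 in these comparisons, and for the 61 members up to 1000 bases it was -0.16 and 0.15. By complex, rho after cisplatin was -0.71 in complex V (17 genes), -0.53 in complex III (9 genes), -0.34 in complex I (39 genes) and 0.15 in complex IV (12 genes). The complexes differ in length themselves, with medians of 1076 bases in complex II, 1039 in III, 513 in V, 500 in I and 386 in IV. The part of length in the differences between complexes was not tested. The longest members include the large catalytic subunits Sdha and Ndufs1, but also the accessory subunit Ndufa11, with 2506 bases and a log2 fold change of -0.41 after cisplatin. Other accessory subunits with long transcripts differed, with Ndufs4 (1380 bases) at -0.29 and Ndufa10 (1065 bases) at -1.22. The parts of length and role in these changes were not tested.

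**Figure D4:**
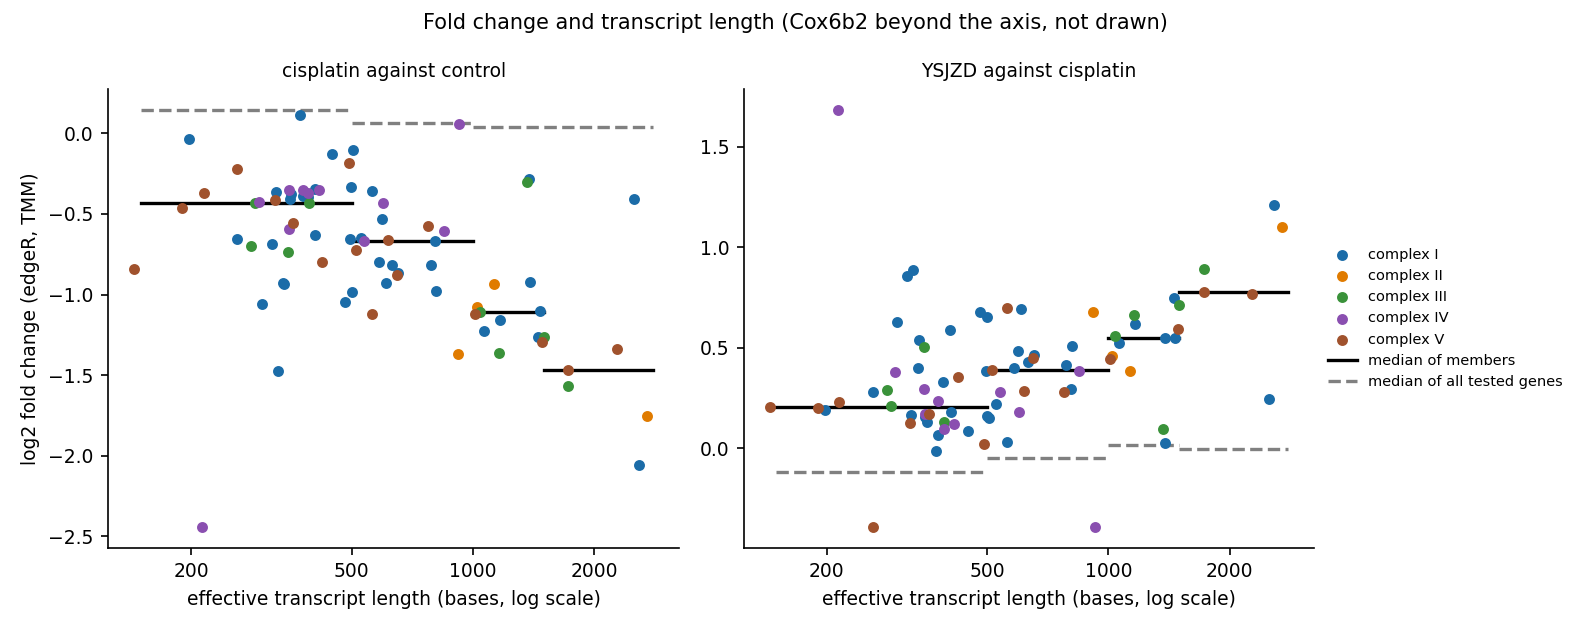
Log2 fold change (vertical axis) against effective transcript length in bases (horizontal axis, log scale) for the members other than Cox6b2, coloured by complex, in 2 comparisons. Solid lines are medians of the members in 4 length classes and dashed lines those of all tested genes. The solid lines move away from 0 with length, to -1.47 on the left and 0.78 on the right, while the dashed lines stay within 0.15 of 0.

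Transcripts within a gene also shifted in a few members. Of the 84 members 58 are listed with a single transcript. Among the other 26, only Ndufv3 and Cox6b2 had a transcript whose mean share of the gene's FPKM differed by more than 8 percentage points between cisplatin and control kidneys. Ndufv3 encodes an accessory subunit of the matrix arm with a short and a long form, and was picked after its values were seen, so no test is given. The longer transcript, NM_030087.2, made up 12.5% to 14.2% in cisplatin + YSJZD kidneys, 8.87% to 12.2% in cisplatin kidneys and 19.5% to 21.9% in control kidneys. Its effective length was 1425 bases, against 333 for NM_001083891.1, and RSEM estimates how reads divide between them. The gene as a whole fell after cisplatin by -0.98 ± 0.13 (adjusted p = 0.00014).

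**Figure D5:**
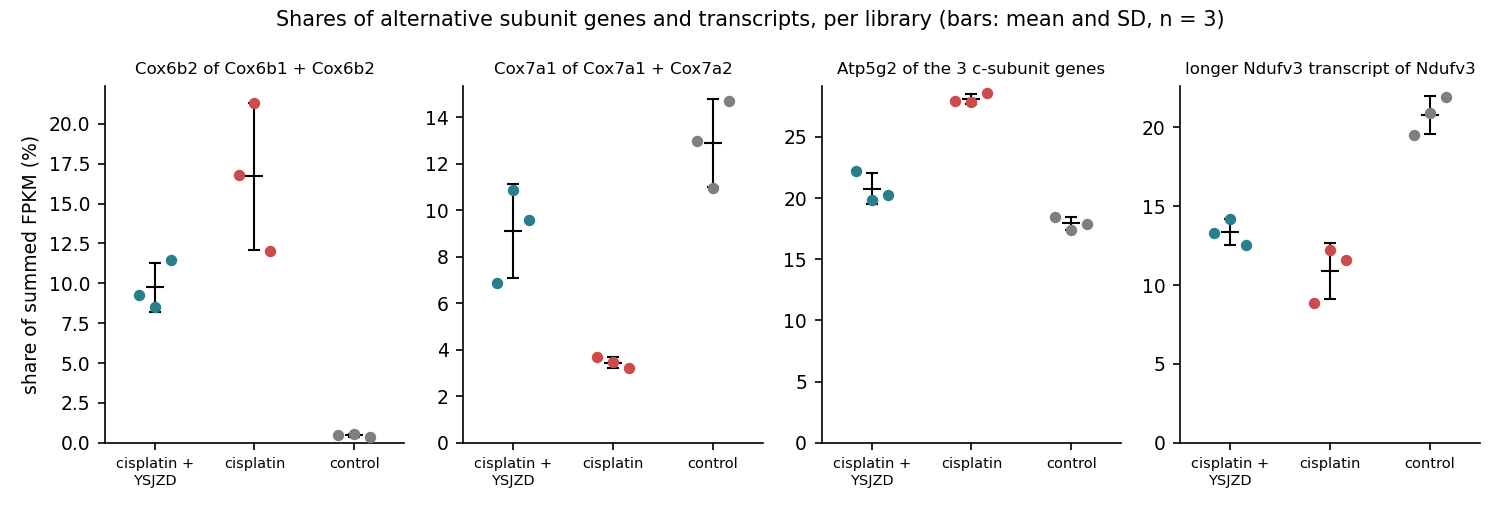
Share (vertical axes, %, starting at 0) of the summed FPKM taken by Cox6b2 beside Cox6b1, Cox7a1 beside Cox7a2, Atp5g2 among the c-subunit genes and the longer Ndufv3 transcript within its gene. Points are libraries, bars the mean and SD of 3. Cisplatin kidneys have the highest shares of Cox6b2 and Atp5g2 and the lowest of Cox7a1 and of the longer Ndufv3 transcript.

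Genes around the chain were read from lists. Assembly factors build the complexes without being part of them. After cisplatin 33 of 55 fell (60%) and 2 rose, with a median log2 fold change of -0.66, against 26% lower and 28.6% higher among all genes. With YSJZD 29 of the 55 were higher than with cisplatin alone (52.7%), with a median of 0.46, against 17.4% among all genes. By complex, the factors that fell after cisplatin were 13 of 16 for complex I, 2 of 4 for complex II, 3 of 6 for complex III, 12 of 24 for complex IV and 3 of 5 for complex V. Their medians were -0.94, -0.43, -0.58, -0.52 and -0.55. Acad9, which is needed for complex I assembly, had 58.3, 75.5 and 73.2 CPM in cisplatin + YSJZD kidneys, 31.2, 31.3 and 29.9 CPM in cisplatin kidneys and 173, 149.6 and 166 CPM in control kidneys. Its log2 fold change was -2.40 ± 0.14 after cisplatin. Surf1, a factor of complex IV, was at -0.03 ± 0.14 (adjusted p = 0.86). All 19 Krebs cycle genes fell, with a median of -1.30, and 16 of the 19 were higher with YSJZD. For ubiquinone synthesis and electron entry, 14 of 20 fell (-0.67), and for carriers, import and inner membrane shape 18 of 26 (-0.55). The proximal tubule markers had a median of -3.39, with 11 of 12 lower.

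Subunits and carriers that the rule leaves out were also read. Cox4i1, the general isoform of subunit 4 of complex IV, was at -0.44 ± 0.15 after cisplatin (adjusted p = 0.024), and Cox4i2, its lung isoform, did not pass, at 0.64 ± 0.53 with under 1.2 CPM in every library. Ndufab1, a carrier protein within complex I, fell by -1.18 ± 0.15 and was higher with YSJZD than with cisplatin alone by 0.71 ± 0.15. Cycs, cytochrome c itself, had 391, 436 and 462 CPM in cisplatin + YSJZD kidneys, 382, 474 and 584 CPM in cisplatin kidneys and 937, 837 and 662 CPM in control kidneys. It fell after cisplatin (-0.76 ± 0.19, adjusted p = 0.0065) and was also lower in YSJZD than in control kidneys (-0.92 ± 0.19, adjusted p = 0.0083), with no call between YSJZD and cisplatin (-0.16 ± 0.19, adjusted p = 0.53). Atpif1, the inhibitor of complex V, was at -0.27 ± 0.17 after cisplatin without passing (adjusted p = 0.19).

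Of 24 genes for regulators and upkeep of mitochondrial DNA, 16 fell after cisplatin (66.7%) and 2 rose (8.33%), against 26% and 28.6% of all genes. With YSJZD 11 were higher than with cisplatin alone (45.8%) and 1 lower (4.17%), against 17.4% and 18% of all genes. Ppargc1a, a coactivator known for driving mitochondrial genes, had 26.9, 39.7 and 37.0 CPM in cisplatin + YSJZD kidneys, 14.1, 17.2 and 12.0 CPM in cisplatin kidneys and 30.7, 42.5 and 50.4 CPM in control kidneys. It was at -1.51 ± 0.22 after cisplatin and 1.26 ± 0.22 with YSJZD against cisplatin. Esrra, an oestrogen-related receptor that works with it, had 82.3, 94.7 and 92.8 CPM in cisplatin + YSJZD kidneys, 44.8, 47.9 and 34.0 CPM in cisplatin kidneys and 179, 148 and 152 CPM in control kidneys. It was at -1.92 ± 0.16 after cisplatin and 1.09 ± 0.15 with YSJZD against cisplatin. Ppargc1b, a related coactivator, fell by -1.15 ± 0.16 after cisplatin, Tfam, which packages mitochondrial DNA, by -0.77 ± 0.15, and Gabpa, an ETS factor, by -0.47 ± 0.16. With YSJZD against cisplatin they were at 0.78 ± 0.16, 0.43 ± 0.15 and, without passing, 0.12 ± 0.16. The call of Tfam (adjusted p = 0.043) was lost in 11 of the 15 alternatives, so it is uncertain. Nrf1 was at 0.34 ± 0.15 after cisplatin without passing (adjusted p = 0.08), though it passed without TMM factors, at 0.58 (adjusted p = 0.014). Pprc1, a related coactivator outside the rule for named genes and chosen after its values were seen, rose by 0.83 ± 0.23.

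Promoter windows of 300 bases, from 250 before to 50 after the start, were available from RefSeq for 68 of the 84 members and 11096 of the 13954 tested genes. Each motif was searched on both strands. The NRF1 core GCATGCGC was in 14.7% of the member windows, against 5.45% of all. The ERR site AAGGTCA was in 11.8%, against 4.11%. The YY1 site AAGATGG was in 16.2%, against 7.92%, and the ETS site CCGGAAG in 25%, against 18.6%. Differences between members with and without a motif were not tested. The median log2 fold change was -0.66 in the 10 tested members with the NRF1 core and -0.66 in the 57 without it. It was -0.70 in 8 with the ERR site and -0.66 in 59 without, -0.59 in 17 with the ETS site and -0.66 in 50 without, and -0.43 in 11 with the YY1 site and -0.67 in 56 without. A match is a run of letters and not a shown binding site.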

How the data were processed

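The authors deposited 1 table of the 9 kidney cortex libraries, with 58075 RefSeq transcripts and the Entrez gene of each. Its read count columns are expected counts per the submitters' processing notes, which name RSEM 1.3.1, with DESeq2 1.4.5 beside it. The other deposited columns were taken to be FPKM, judged by their values, since the file headers name no scaling. The notes name GRCh38, a human build, and the mouse build is not given in the sources used here. Coordinates printed are those of RefSeq on GRCm38.p6.

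Expected counts were summed per Entrez gene and rounded, giving 17963 genes. Symbols came from the RefSeq table for 17847. Library totals were 15029286 to 16690482. At that depth a member with few counts, such as Cox7a1 or Ndufa4l2, has a larger counting error than its abundant partners. All 9 libraries were fitted in edgeR 4.0.16 (R 4.3.3) with filterByExpr, TMM factors and group as the only term. The filter left 13954 genes, the common biological coefficient of variation was 0.234, and a gene was called at a two-sided adjusted p under 0.05. The script was tested on simulated counts. Alternatives were DESeq2 1.42.0 (size factors and Wald test), limma-voom 3.58.1, library totals alone, other filters, fewer libraries and a replicate block. RSEM divides reads between similar transcripts, so paralogs such as the Ndufb4 copies are uncertain. Strand is not stated for the counting, so overlapping antisense genes cannot be told apart.

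Members, lists and tests were chosen with earlier results of these data known. Genes named were all Sdh genes, the 2 lowest and 2 highest called members of each complex in each comparison, members called against the general direction, and a fixed set of subunits and regulators. FPKM compares levels between genes and CPM levels within a gene.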

Additional observations from a re-analysis of the deposited data

How the results depend on the processing

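The median log2 fold changes of the members and of each complex kept their sign under all alternatives run. Of these medians 6 moved by more than the spread between libraries with library totals alone, and 1 with a library left out. After cisplatin, the number lower was 44 with library totals alone, 53 with the replicate block, 56 to 66 under the other settings and 47 to 69 with 1 library left out. Without TMM factors 2 members were higher. For YSJZD against cisplatin, leaving out a library gave 20 to 38 higher members and 0 to 2 lower ones, the second being Cox7a2l. None was lower in the fit of the 6 libraries compared (0) or with the replicate block (0). For YSJZD against control, the number lower was 10 with library totals alone, 35 by the DESeq2 Wald test, 17 with the block and 5 to 26 with 1 library left out. The cause of these moves was not tested. After group means were subtracted, same-numbered libraries had correlations of -0.22 to 0.06 over genes. Differently numbered ones had -0.18 to 0.25. Whether equal numbers stand for a shared batch cannot be told from these values. With the block 26 members were higher with YSJZD than with cisplatin alone. With library totals alone complex IV stood at -0.16 after cisplatin, against 0.27 for all genes. No called gene named moved by over 1.5-fold when a library was left out. Calls with an adjusted p near 0.05, those of Cox7a2, Cox5b, Uqcrh and Ndufb7 after cisplatin, Tfam and Ndufa8 for YSJZD against cisplatin and Atp5h for YSJZD against control, were lost under 8 to 11 of the 15 settings. With 3 libraries a group and counts of 1.66 to 84.4 CPM, Cox6b2 and Cox7a1 have the widest errors among the called members named.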
